A study of Mus musculus with 27 samples.

Results

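The expression of 10 immediate-early genes was followed through haematopoietic development in the mouse. They are the zinc-finger transcription factors Egr1, Egr2 and Egr3, the orphan nuclear receptors Nr4a1, Nr4a2 and Nr4a3, the genes named Ier2, Ier3 and Ier5, and the phosphatase Dusp1. They were taken by symbol from a table of 24418 entries, all 10 were found, and all 10 were among the 13350 genes that passed the filter on low values (at least 1 FPKM in at least 3 libraries). The table holds bulk RNA sequencing of 27 libraries of purified mouse (C57BL/6) haematopoietic stem and progenitor cells, or HSPCs, 3 libraries in each of 9 groups. The groups were E12.5 PL, E12.5 FL and E16.5 FL from embryos, Perinatal BM, and BM of mice aged 1, 3, 4, 6 and 8 weeks (1w BM to 8w BM). FL stands for fetal liver and BM for bone marrow in common use, whereas the labels do not spell out PL. No genotype, treatment or allele is named in any group. The markers used to purify the cells, the sex of the animals, the number pooled per library, the perinatal day and the handling times are not stated by any source used here. Since nothing says that replicates came from separate animals, p-values measure the spread between these libraries, which may be technical.

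Immediate-early genes are transcribed within minutes of a stimulus, without new protein synthesis. Growth factors, cytokines and stress reach their promoters through MAP kinases, which act on serum response factor (SRF) with its ternary complex partners, and through CREB, which binds TGACG-containing sites. The transcripts are short-lived, and several of the products, Dusp1 among them, switch the response off again. In mice, Egr1 is known for its part in keeping haematopoietic stem cells quiescent and in the marrow, and loss of Nr4a1 together with Nr4a3 leads to myeloid leukaemia. The same genes are known to respond to tissue dissociation and cell sorting.

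Levels are FPKM (fragments normalised to transcript length and library size), which the authors computed. Depth in reads is therefore unknown, and no counting interval is given. Steps between low values put the shallowest library at 0.702 and the deepest at 1.59 relative to the median depth. Per library, the FPKM total was 519810 to 763033 and 14241 to 16964 genes had a value above 0. Kit and Cd34, surface proteins of HSPCs, were present in every group, at mean levels of 62.7 to 179 FPKM and 139 to 354 FPKM, with the lowest mean of each in E12.5 PL. E12.5 PL stood apart. The haematopoietic gene Ptprc averaged 7.91 ± 2.78 FPKM in E12.5 PL and 65.3 ± 2.31 FPKM in E12.5 FL (SD, n = 3 each). The summed level of 10 trophoblast markers was 3733 to 4326 FPKM in E12.5 PL and 19.0 to 20.3 FPKM in E12.5 FL. In bulk samples, fewer cells of a type and less RNA per cell cannot be told apart.

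The promoters of 4 members carried the short CREB site, TGACG, at a density found in few other promoters, and these are shown with that of Egr2, which carried the binding letters of SRF. RefSeq windows of the GRCm38.p6 build were available for 7 of the 10 members, and the 250 bases before each annotated start were searched on both strands. TGACG, read as CGTCA on the other strand, occurred 4 times each in Nr4a1, Nr4a2 and Nr4a3, 3 times in Dusp1 and 2 times in Egr2. At least 1 match was found in 17.8% of 32851 windows of the same length, at least 3 in 0.688% and at least 4 in 0.137%. Capitals mark TGACG or CGTCA, the full CREB site TGACGTCA in Dusp1 (which contains 2 of its 3 matches), the CArG box in Egr2 and TATAAA, read as TTTATA, in Nr4a2.
Nr4a1 (chr15:101266596-101266845, plus strand): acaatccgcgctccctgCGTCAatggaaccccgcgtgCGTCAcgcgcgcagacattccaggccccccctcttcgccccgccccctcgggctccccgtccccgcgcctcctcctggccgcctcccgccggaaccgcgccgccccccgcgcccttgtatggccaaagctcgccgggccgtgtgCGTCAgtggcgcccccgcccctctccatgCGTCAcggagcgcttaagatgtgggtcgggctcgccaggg
Nr4a2 (chr2:57124004-57124253, minus strand): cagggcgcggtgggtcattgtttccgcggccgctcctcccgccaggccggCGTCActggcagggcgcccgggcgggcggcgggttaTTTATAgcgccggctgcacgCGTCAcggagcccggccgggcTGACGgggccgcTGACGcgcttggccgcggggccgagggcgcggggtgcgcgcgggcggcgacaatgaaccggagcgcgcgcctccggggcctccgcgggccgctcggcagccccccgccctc
Nr4a3 (chr4:48045055-48045304, plus strand): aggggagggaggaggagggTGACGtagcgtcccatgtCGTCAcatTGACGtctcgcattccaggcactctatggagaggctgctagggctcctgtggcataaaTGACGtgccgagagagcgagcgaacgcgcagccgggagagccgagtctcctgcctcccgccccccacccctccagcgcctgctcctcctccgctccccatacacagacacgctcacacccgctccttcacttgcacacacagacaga
Dusp1 (chr17:26508473-26508722, minus strand): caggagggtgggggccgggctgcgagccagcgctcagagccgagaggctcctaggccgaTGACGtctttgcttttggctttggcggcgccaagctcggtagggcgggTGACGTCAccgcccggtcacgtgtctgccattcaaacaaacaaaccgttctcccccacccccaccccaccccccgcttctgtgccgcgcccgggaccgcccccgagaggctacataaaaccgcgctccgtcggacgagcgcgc
Egr2 (chr10:67537619-67537868, plus strand): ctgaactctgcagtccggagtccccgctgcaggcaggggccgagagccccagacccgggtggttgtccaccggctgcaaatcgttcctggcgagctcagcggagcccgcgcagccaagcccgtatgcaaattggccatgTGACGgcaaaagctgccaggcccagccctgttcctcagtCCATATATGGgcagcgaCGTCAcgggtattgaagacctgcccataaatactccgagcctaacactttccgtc

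On the GRCm38.p6 build, the members without a window lie at chr14:70077317-70082613 (Egr3), chr8:84661331-84662852 (Ier2) and on chromosome 18 (Egr1). TGACGTCA lay 143 to 136 bases before the start of Dusp1 and was present in 1.55% of windows. The CArG box lay 72 to 63 bases before the start of Egr2 in the window shown, and a CArG box was present in 1.47% of windows. Egr2 has 5 annotated starts, of which 3 lie so close together that their windows share these letters. Of the other windows, 1 carries another CArG box and 1 carries none. GCGNGGGCG, the letters bound by Egr proteins, occurred in Nr4a1 and Nr4a2 and in 4.7% of windows. Neither TGACG nor a CArG box was found in the windows of Ier3 and Ier5, and the AP-1 letters TGANTCA were found in none of the 7 members. These matches describe the letters of the windows only.

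Among the Egr genes, Egr1 was the most abundant and the most variable between groups. Its 3 libraries gave 38.2, 43.4 and 29.7 FPKM in E12.5 FL, 64.8, 91.2 and 65.8 in E16.5 FL, 261, 418 and 277 in Perinatal BM, and 1461, 1829 and 1135 in 6w BM. The highest group mean, 1475 ± 347 FPKM in 6w BM, was 39.8 times the lowest, 37.1 ± 6.90 FPKM in E12.5 FL (SD, n = 3 each). Libraries of neighbouring groups in the order of levels did not overlap between 6w BM and 8w BM, between 4w BM and 1w BM, between Perinatal BM and E16.5 FL and between E16.5 FL and E12.5 FL. The groups 8w, 3w and 4w BM overlapped along that order, as did 1w BM, E12.5 PL and Perinatal BM. Egr2 and Egr3, better known as restraints on T cell activation and, for Egr2, as a regulator of myelin genes, were far lower. Egr2 ranged from 0.151 to 4.87 FPKM over all libraries, with the highest group mean in E12.5 PL (3.73 ± 1.01) and the lowest in E12.5 FL (0.429 ± 0.251). Egr3 ranged from 0.835 to 16.1 FPKM, highest in 6w BM (10.3 ± 5.13) and lowest in E16.5 FL (1.05 ± 0.341).

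Nr4a1 was the most abundant of the nuclear receptors, and the order of its groups differed from that of Egr1. Its group means were 84.0 ± 15.98 FPKM in E12.5 PL, 139 ± 17.0 in E12.5 FL, 422 ± 8.58 in E16.5 FL and 627 ± 53.7 in Perinatal BM. They were 296 ± 119 in 1w BM, 943 ± 121 in 3w BM, 657 ± 149 in 4w BM, 1203 ± 358 in 6w BM and 390 ± 207 in 8w BM (SD, n = 3 each). Nr4a1 was thus high at 3 and 6 weeks and lower at 1 and 8 weeks. Nr4a2, known in mice as a regulator of stem cell quiescence as well as of dopamine neurons, was the single member with its highest mean in Perinatal BM (39.8 ± 4.42 FPKM). Nr4a2 had its lowest mean in E12.5 PL (6.42 ± 1.28 FPKM). Nr4a3 was low and uneven. It stood at 0.511, 0.550 and 0.626 FPKM in E12.5 FL and at 0.127, 0.382 and 1.48 FPKM in 8w BM, but at 6.65, 31.3 and 6.24 FPKM in 6w BM. In 4w BM, 2 libraries had 8.05 and 8.78 FPKM of Nr4a3 and the other 0.813 FPKM.

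Ier2, a nuclear protein induced by growth factors, averaged 963 ± 210 FPKM in 6w BM, its highest group, and 198 ± 28.5 FPKM in E12.5 FL, its lowest. Ier3, a stress-induced protein that modifies cell survival, varied least, with a ratio of 2.67 between its highest group mean (295 ± 51.3 in 6w BM) and its lowest (111 ± 11.9 in E12.5 FL). Ier5, known to act with the phosphatase PP2A and the heat shock factor HSF1, ranged between group means of 161 ± 48.7 FPKM in 6w BM and 36.1 ± 3.92 FPKM in E12.5 FL. Dusp1, which removes phosphate from p38, JNK and ERK, ranged between 447 ± 63.1 FPKM in 6w BM and 117 ± 19.7 FPKM in E12.5 FL, and every pair of neighbouring groups in its order overlapped. In all, 8 of 10 members had their highest group mean in 6w BM, all but Egr2 and Nr4a2, and 7 of 10 their lowest in E12.5 FL, all but Egr3, Nr4a1 and Nr4a2. The Nr4a3 mean in 6w BM was raised by replicate 2 (31.3 FPKM), and its median there, 6.65 FPKM, was below 12.6 FPKM in 3w BM. Libraries of 6w BM were clear of the next group in the order for Egr1, Ier2 and Ier5 only. The share of all genes with such highest or lowest means was not computed.

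**Figure D1:**
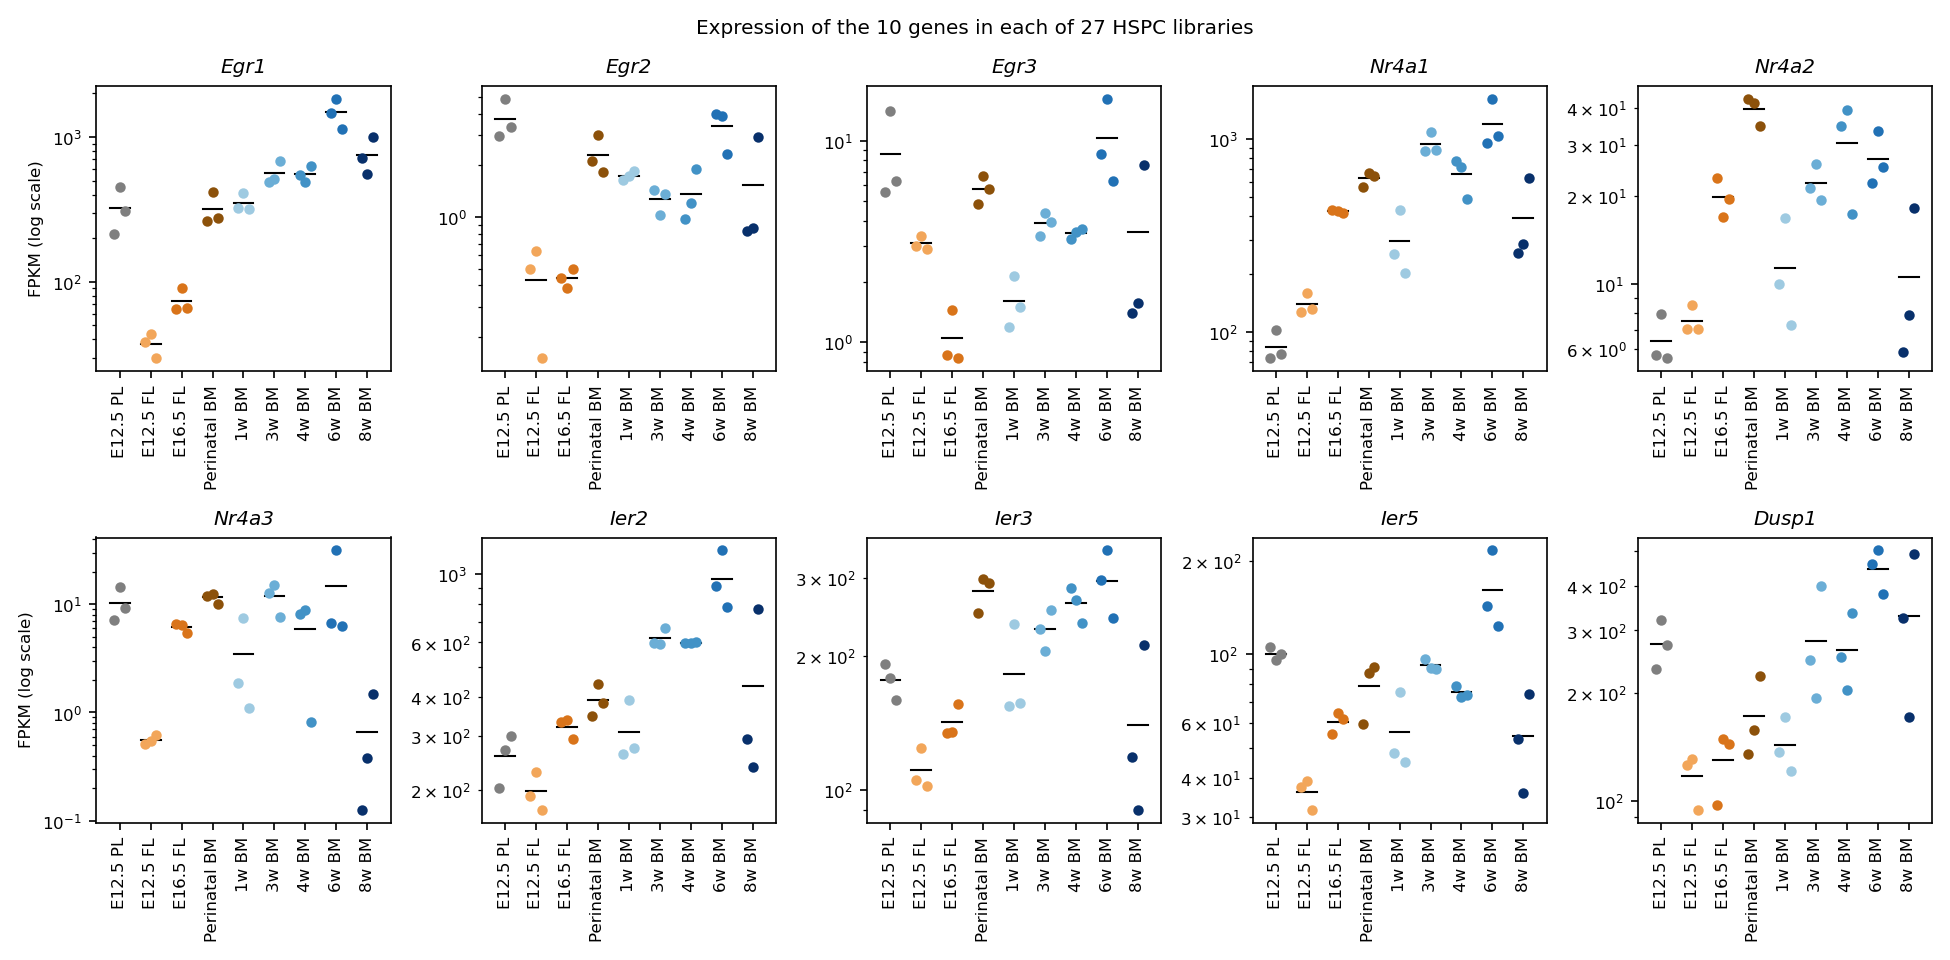
FPKM of each gene on a log axis (1 panel per gene, axes differ), with 1 point per library and a bar at the mean of 3 libraries, over the 9 groups. Egr1 lies between 29.7 and 43.4 FPKM in E12.5 FL and between 1135 and 1829 FPKM in 6w BM, whereas Nr4a3 lies at or under 1.48 FPKM in both E12.5 FL and 8w BM.

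**Figure D2:**
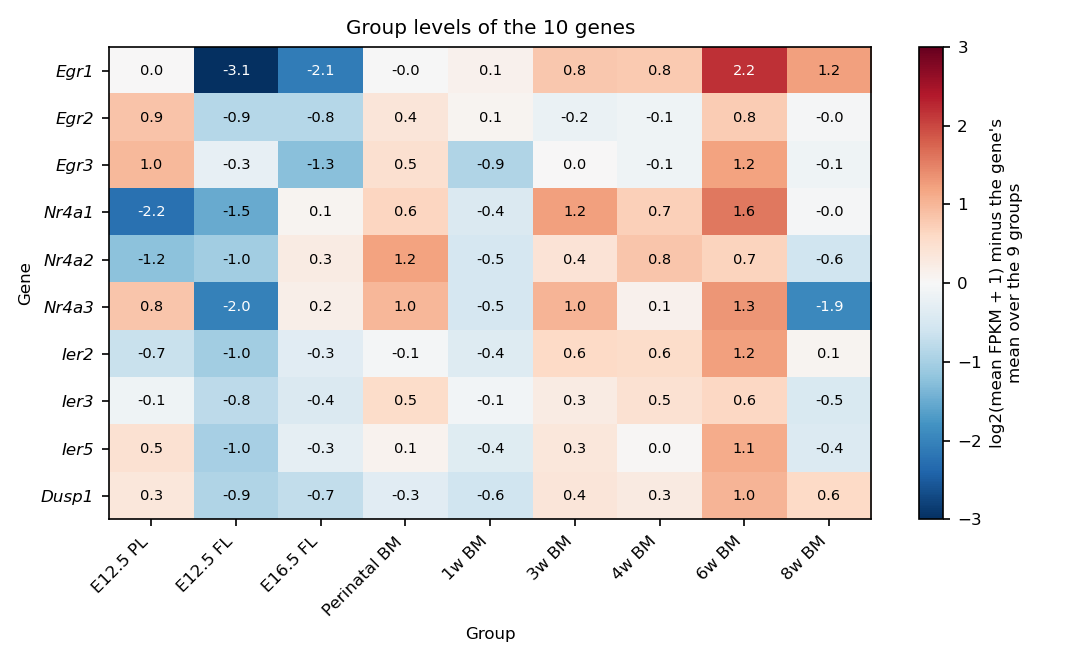
Log2(mean FPKM + 1) of each group (columns) less the average of the 9 groups for that gene (rows), with the value printed in each cell. Egr1 has 2.20 in 6w BM and -3.08 in E12.5 FL. At 1w BM and 8w BM, Egr1 has 0.14 and 1.24, Nr4a1 -0.44 and -0.04, and Nr4a3 -0.50 and -1.93.

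Differences between groups were tested across all 13350 genes with limma on log2(FPKM + 1), with p-values adjusted by the Benjamini-Hochberg method, and a gene was called at an adjusted p under 0.05. Because 1 was added to each FPKM before the logarithm was taken, folds of low genes such as Nr4a3 are understated. A first test asked whether a gene differed anywhere among the 6 BM groups. All 10 members were called, against 53.2% of all genes, with adjusted p values between 2.83e-06 for Egr1 and 0.0101 for Egr2 (limma, moderated F test).

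E12.5 PL and E12.5 FL are 2 sources at the same embryonic age. Egr1, Egr2, Egr3, Nr4a3, Ier3, Ier5 and Dusp1 were higher in E12.5 PL and Nr4a1 was lower. These 8 of 10 members compare with 74.2% of all genes called in this comparison (41.0% higher and 33.2% lower), so the count says little about the members. Libraries did not overlap for 8 of 10 members, against 76.3% of all genes. Egr1 had 212, 448 and 309 FPKM in E12.5 PL, against 38.2, 43.4 and 29.7 FPKM in E12.5 FL, 8.22-fold higher (log2 3.04 ± 0.25 SE, adjusted p = 1.28e-10). Nr4a3 had 7.13, 14.4 and 9.31 FPKM in E12.5 PL, against 0.511, 0.550 and 0.626 FPKM in E12.5 FL (6.97-fold, adjusted p = 0.000118). Nr4a1 ran the other way, with 73.2, 102 and 76.5 FPKM in E12.5 PL against 127, 158 and 131 FPKM in E12.5 FL (log2 -0.73 ± 0.28, adjusted p = 0.0212). The ratio of Egr1 to Nr4a1 was therefore 2.90 to 4.38 in E12.5 PL and 0.227 to 0.3003 in E12.5 FL. Beside these genes, 10 of 12 heat shock and stress genes rose and 0 fell, while 1 of 10 HSPC markers rose and 8 fell. Of 10 markers each, 10 trophoblast, 9 stromal and 9 endothelial markers rose. The stromal sum was 5694 to 13283 FPKM in E12.5 PL and 12.8 to 16.3 FPKM in E12.5 FL, the endothelial sum was 871 to 1091 FPKM in E12.5 PL and 255 to 282 FPKM in E12.5 FL, and the part of these cell types in the result was not tested. The call of Nr4a1 was lost without E12.5 PL replicate 1, E12.5 PL replicate 3 or E12.5 FL replicate 2 (adjusted p = 0.0692, 0.0597 and 0.0762), and that of Egr3 without E12.5 PL replicate 2 (adjusted p = 0.0705).

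Between E12.5 and E16.5, fetal liver HSPCs gained expression of all 3 Nr4a genes. Egr1, Ier2 and Ier5 also rose and Egr3 fell, which made 7 of 10 members called, against 34.6% of all genes (19.0% higher and 15.6% lower). Nr4a1 had 428, 426 and 412 FPKM in E16.5 FL, against 127, 158 and 131 FPKM in E12.5 FL, 3.04-fold higher (log2 1.60 ± 0.28 SE, adjusted p = 0.000127). Nr4a2 had 23.1, 17.0 and 19.5 FPKM in E16.5 FL, against 7.04, 8.51 and 7.03 FPKM in E12.5 FL (log2 1.29 ± 0.31, adjusted p = 0.00265). Nr4a3 had 6.52, 6.41 and 5.46 FPKM in E16.5 FL, and thus stood above its values under 1 FPKM in E12.5 FL in every library (log2 2.19 ± 0.57, adjusted p = 0.00478). Libraries of the groups did not overlap for 8 of 10 members, the Nr4a genes among them, against 52.9% of all genes. Egr1 was 1.96-fold higher (adjusted p = 0.00423). Egr3 was lower, with 0.869, 1.44 and 0.835 FPKM in E16.5 FL against 3.02, 3.38 and 2.91 FPKM in E12.5 FL (log2 -1.01 ± 0.36, adjusted p = 0.0319). Egr2 averaged 0.443 ± 0.0576 FPKM in E16.5 FL and 0.429 ± 0.251 FPKM in E12.5 FL, and the groups overlapped. The count was 4 without E12.5 FL replicate 3. The call of Ier2 (log2 0.70, adjusted p = 0.0482) was lost without any 1 of the 6 libraries (0.0531 to 0.146), with a log2 fold of 0.61 to 0.81. Egr3 was lost without any of them but E16.5 FL replicate 2 (0.0612 to 0.0901), with a log2 fold of -1.05 to -0.94 where it was lost, and Ier5 without E12.5 FL replicate 3 (0.0518). Of the marker lists, 8 of 8 B cell precursor, 6 of 8 neutrophil and 6 of 10 HSPC markers rose. So did 5 of 8 tested macrophage and 5 of 7 tested erythroid markers, and 0 fell in these lists. Of 12 heat shock and stress genes, 2 rose and 9 fell. The part of these lists in the result was not tested.

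All 3 Egr genes were higher in perinatal marrow than in late fetal liver. Egr1, Egr2 and Egr3, with Nr4a2 and Ier3, were higher in Perinatal BM than in E16.5 FL, 5 of 10 members against 28.4% of all genes (14.2% higher and 14.2% lower), and no member was called lower. Egr1 had 261, 418 and 277 FPKM in Perinatal BM, against 64.8, 91.2 and 65.8 FPKM in E16.5 FL (4.22-fold, log2 2.08 ± 0.25 SE, adjusted p = 2.07e-06). Egr3 had 4.87, 6.69 and 5.76 FPKM in Perinatal BM, against 0.869, 1.44 and 0.835 FPKM in E16.5 FL (log2 1.73 ± 0.36, adjusted p = 0.00096). Egr2 rose too (log2 1.18 ± 0.23, adjusted p = 0.000604). Ier3 had 250, 299 and 292 FPKM in Perinatal BM, against 134, 135 and 156 FPKM in E16.5 FL (log2 0.98 ± 0.21, adjusted p = 0.00113). Libraries did not overlap for 8 of 10 members, against 38.0% of all genes, and these genes were among them. Nr4a2 averaged 39.8 ± 4.42 FPKM in Perinatal BM and 19.9 ± 3.06 FPKM in E16.5 FL (adjusted p = 0.0211), and its call was lost without E16.5 FL replicate 2 or 3 or Perinatal BM replicate 1 or 2 (0.0528 to 0.0783). Mast cell markers moved with this comparison. All 10 rose, and their sum was 1515 to 4103 FPKM in Perinatal BM and 12.02 to 60.4 FPKM in E16.5 FL. The part of mast cells in the result was not tested. In 1w BM against E16.5 FL, 9 of 10 mast cell markers were higher, with a sum of 93.4 to 151 FPKM in 1w BM, and 8 of 8 B cell precursor markers and 7 of 12 heat shock and stress genes were lower. The part of these lists in that comparison was not tested. Egr1 was 4.73-fold higher in 1w BM than in E16.5 FL (325, 409 and 320 FPKM, log2 2.24 ± 0.25, adjusted p = 9.86e-07). Egr2 was the other member called in 1w BM against E16.5 FL (log2 0.93 ± 0.23, adjusted p = 0.00562), so that 2 of 10 members were called, against 22.2% of all genes (10.4% higher and 11.9% lower). For 3 of 10 members libraries did not overlap, against 41.3% of all genes. Without 1w BM replicate 2, 4 members were called, 2 higher and 2 lower. B cell precursor markers fell in Perinatal BM against E16.5 FL (8 of 8), as did 9 of 12 heat shock and stress genes. In the same comparison 5 of 8 tested macrophage and 5 of 10 endothelial markers fell, and 0 of either list rose. The part of these lists in the result was not tested.

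From the perinatal to the first-week marrow, the Nr4a genes and Egr3 fell, and Egr1 did not pass the threshold. Nr4a1, Nr4a2, Nr4a3, Egr3 and Ier3 were lower in 1w BM, 5 of 10 members against 17.6% of all genes (8.6% higher and 8.97% lower). For the same number of members, 5 of 10, libraries did not overlap, against 32.7% of all genes. Nr4a2 had 10.02, 16.8 and 7.29 FPKM in 1w BM, against 42.9, 41.7 and 34.7 FPKM in Perinatal BM, 3.46-fold lower (log2 -1.79 ± 0.31 SE, adjusted p = 0.00037). Nr4a1 had 254, 430 and 203 FPKM in 1w BM, against 567, 670 and 645 FPKM in Perinatal BM (log2 -1.15 ± 0.28, adjusted p = 0.00569). Egr3 had 1.198, 2.13 and 1.498 FPKM in 1w BM and was lower than in Perinatal BM in every library (log2 -1.38 ± 0.36, adjusted p = 0.0101). Egr1 averaged 351 ± 49.7 FPKM in 1w BM and 319 ± 86.5 FPKM in Perinatal BM, and the 95% interval of the log2 difference ran from -0.35 to 0.68. The mast cell sum fell in the same comparison (9 of 10 markers lower), and its part in the result was not tested. The count was 3 without Perinatal BM replicate 2 or 3 or without 1w BM replicate 1 or 3. The lost calls were those of Ier3 and Nr4a3, with adjusted p = 0.0778 to 0.14 for Ier3 and 0.0531 to 0.176 for Nr4a3, which was also lost without Perinatal BM replicate 1.

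Between 1 and 3 weeks several members rose and none fell. Nr4a1, Nr4a2, Ier2 and Ier5 were higher in 3w BM, 4 of 10 members against 10.4% of all genes (5.69% higher and 4.76% lower). Nr4a1 had 869, 1083 and 879 FPKM in 3w BM, against 254, 430 and 203 FPKM in 1w BM, 3.33-fold higher (log2 1.74 ± 0.28 SE, adjusted p = 0.000258). Ier2 had 599, 593 and 669 FPKM in 3w BM, against 261, 391 and 273 FPKM in 1w BM (log2 1.03 ± 0.27, adjusted p = 0.0174). For 9 of 10 members, all but Ier3, the libraries of the groups did not overlap, which held for 34.7% of all genes. Egr2 was the member with lower libraries in 3w BM. The call of Nr4a1 held whichever library was left out. The count was 1 without 1w BM replicate 1, 1w BM replicate 3 or 3w BM replicate 3 and 2 without 3w BM replicate 1. With the E12.5 PL libraries left out of the fit 7 members were called, and in a fit of the 6 libraries alone 8. The adjusted p was up to 0.0811 for Ier2, up to 0.143 for Ier5 and up to 0.219 for Nr4a2 in these leave-outs, with log2 folds of at least 0.92, 0.60 and 0.72, and the calls of Ier5 and Nr4a2 were also lost without 3w BM replicate 2 (0.0708 and 0.153). Heat shock genes rose beside the members (7 of 12 higher, none lower), as did 5 of 8 tested macrophage markers, while 5 of 8 neutrophil markers fell, and their part in the result was not tested.

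Between 3 and 4 weeks, limma called 0 of 10 members, against 9.28% of all genes (4.72% higher and 4.56% lower). Libraries did not overlap for 2 of 10, Nr4a1 and Ier5, both lower in 4w BM, against 29.9% of all genes. At an unadjusted p under 0.05 there was 1, Nr4a3, which had 8.05, 8.78 and 0.813 FPKM in 4w BM, against 12.6, 15.1 and 7.64 FPKM in 3w BM. The third library of 4w BM, low in Nr4a3, was not low in Egr1 (626 FPKM, against 542 and 487 in the other 4w BM libraries).

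From 4 to 6 weeks Egr1 and Ier5 rose, as did Egr2 with a call that several alternative fits lost. Egr1, Egr2 and Ier5 were higher in 6w BM, 3 of 10 members against 3.94% of all genes (2.59% higher and 1.35% lower). Egr1 had 1461, 1829 and 1135 FPKM in 6w BM, against 542, 487 and 626 FPKM in 4w BM, 2.63-fold higher (log2 1.398 ± 0.25 SE, adjusted p = 0.00183). Ier5 had 143, 216 and 123 FPKM in 6w BM, against 79.2, 73.1 and 74.1 FPKM in 4w BM (log2 1.04 ± 0.22, adjusted p = 0.00651). Libraries did not overlap for 7 of 10 members, both of these included, against 20.6% of all genes. Egr3 had 8.59, 16.1 and 6.27 FPKM in 6w BM, against 3.27, 3.52 and 3.66 FPKM in 4w BM, and did not pass the threshold (adjusted p = 0.0533). Without 6w BM replicate 2, Egr1 alone was called, with adjusted p = 0.0661 for Ier5. Egr2 (log2 0.89 ± 0.23, adjusted p = 0.0326) was lost without 4w BM replicate 1 or 2 or 6w BM replicate 1 or 2 (0.0736 to 0.149). Its call was also lost with 0.1 added to each FPKM in place of 1 (limma, adjusted p = 0.0798). The same held with no filter on low values (0.0605) and in a fit of only the libraries compared (0.105). Of 12 heat shock genes, 4 rose and none fell, and their part in the result was not tested.

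Among the steps between successive marrow ages, that from 6 to 8 weeks had the most members called in the fit of all 27 libraries, but not in fits of only the 6 libraries compared (3 members, against 8 in 3w BM against 1w BM). All members but Dusp1 were lower in 8w BM, 9 of 10 against 8.18% of all genes (2.97% higher and 5.21% lower), with a median log2 fold of -1.36 against 0.01 over all genes. Nr4a3 had 0.127, 0.382 and 1.48 FPKM in 8w BM, against 6.65, 31.3 and 6.24 FPKM in 6w BM (log2 -2.95 ± 0.57 SE, adjusted p = 0.00158). Nr4a1 had 257, 286 and 629 FPKM in 8w BM, against 959, 1614 and 1035 FPKM in 6w BM (log2 -1.70 ± 0.28, adjusted p = 0.000283). Ier5 had 53.4, 35.9 and 74.8 FPKM in 8w BM, against 143, 216 and 123 FPKM in 6w BM (log2 -1.56 ± 0.22, adjusted p = 6.1e-05). The third library of 8w BM was above the others in all 3 genes and still below every library of 6w BM. Egr1 had 721, 554 and 994 FPKM in 8w BM and was 1.97-fold lower than in 6w BM (log2 -0.98 ± 0.25, adjusted p = 0.0152). The log2 fold was -1.33 for Ier2, -1.15 for Ier3, -1.38 for Nr4a2, -1.499 for Egr3 and -0.86 for Egr2, all with an adjusted p of 0.022 or less. Dusp1 had 326, 172 and 491 FPKM in 8w BM, against 460, 503 and 379 FPKM in 6w BM, and the groups overlapped. Libraries did not overlap for 7 of 10 members, against 26.4% of all genes.

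The count of 9 was the same without 8w BM replicate 3. Without 6w BM replicate 2 or 8w BM replicate 1 it was 5, and Nr4a1, Nr4a3, Ier2, Ier3 and Ier5 were the members called. Egr1 was lost without 6w BM replicate 2, 8w BM replicate 1 or 8w BM replicate 2 (adjusted p = 0.117, 0.0536 and 0.11), as was Egr3 (0.1, 0.0803 and 0.0768). Egr2 was lost without these or 6w BM replicate 1 (0.0785 to 0.141), and Nr4a2 without 6w BM replicate 2 or 8w BM replicate 1 (0.0503 and 0.0549). Macrophage markers moved the other way, with 7 of 8 tested higher and a sum of 104 to 168 FPKM in 8w BM and 52.1 to 63.1 FPKM in 6w BM. Heat shock genes moved with the members, with 6 of 12 lower and none higher. The part of neither list in the result was tested.

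**Figure D3:**
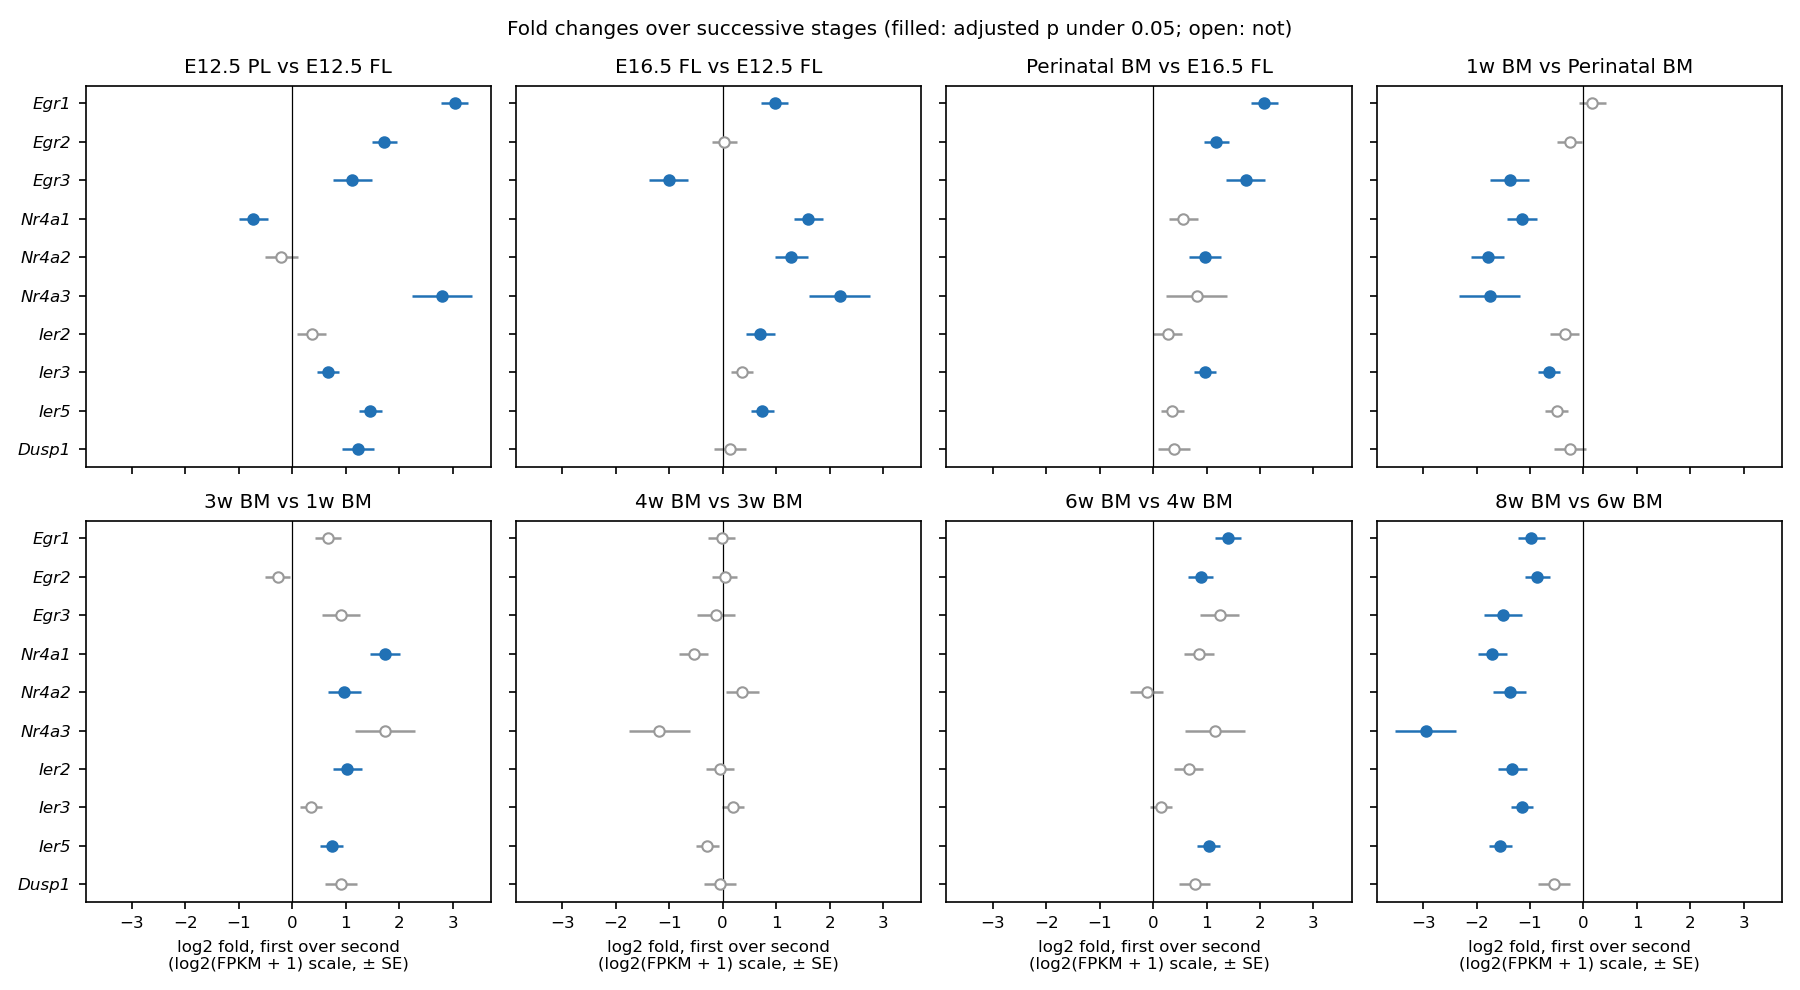
Log2 fold of each gene (rows), first group over second, with its standard error, in 8 comparisons of successive groups, with filled points for an adjusted p under 0.05. All filled points lie left of 0 in 8w BM against 6w BM (9 genes) and in 1w BM against Perinatal BM (5 genes), and right of 0 in 3w BM against 1w BM (4 genes) and 6w BM against 4w BM (3 genes).

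Set against E16.5 FL and Perinatal BM, 8w BM held high Egr1 beside low Nr4a2 and Nr4a3. The means of Nr4a2 and Nr4a3 were 10.6 and 0.662 FPKM in 8w BM, and 7.53 and 0.562 FPKM in E12.5 FL. Against E16.5 FL, Egr1 was 9.94-fold higher in 8w BM (log2 3.31 ± 0.25 SE, adjusted p = 5.91e-10). Dusp1 averaged 330 ± 159 FPKM in 8w BM and 130 ± 28.5 FPKM in E16.5 FL (log2 1.23 ± 0.30, adjusted p = 0.00203). Nr4a3 was lower in 8w BM in every library, with 0.127, 0.382 and 1.48 FPKM against 6.52, 6.41 and 5.46 FPKM in E16.5 FL (log2 -2.18 ± 0.57, adjusted p = 0.00372). With Egr2 higher and Nr4a2 lower, 5 of 10 members were called, against 40.2% of all genes (20.5% higher and 19.7% lower), and libraries did not overlap for 4 of 10, against 52.3%. Without 8w BM replicate 3, Egr2 was lost (adjusted p = 0.178), Nr4a1 and Ier3 were called lower, and 6 members were called, 2 higher and 4 lower. Nr4a2 was lost without 8w BM replicate 1 or 2 or E16.5 FL replicate 1 (0.112, 0.0621 and 0.0607). B cell precursor markers were lower (8 of 8), 7 of 8 tested macrophage markers were higher, and 3 of 8 neutrophil markers were higher and 5 lower. Of 10 mast cell markers 5 were higher and 3 lower, of 10 endothelial markers 1 was higher and 8 lower, and 5 of 12 heat shock and stress genes were lower. The macrophage sum was 104 to 168 FPKM in 8w BM and 45.8 to 52.5 FPKM in E16.5 FL, and the part of these lists in the result was not tested.

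Against Perinatal BM, Egr1 was 2.35-fold higher in 8w BM (log2 1.23 ± 0.25 SE, adjusted p = 0.000455), and Dusp1 was also higher. Nr4a1, Nr4a2, Nr4a3, Ier3 and Ier5 were lower, which made 7 of 10 members, against 37.8% of all genes (19.2% higher and 18.6% lower). For 4 of 10 members libraries did not overlap, against 45.9% of all genes. Nr4a2 had 5.86, 7.85 and 18.2 FPKM in 8w BM, against 42.9, 41.7 and 34.7 FPKM in Perinatal BM (log2 -1.95 ± 0.31, adjusted p = 3.49e-05). Nr4a3 was 7.98-fold lower (adjusted p = 0.00025). The count was 4 without Perinatal BM replicate 2 or 8w BM replicate 1, and 9 without 8w BM replicate 3, when 8 members were lower and Egr1 was the single one higher. Nr4a1 (adjusted p = 0.0256) was lost without Perinatal BM replicate 2 or 3 or 8w BM replicate 1 or 2 (0.0591 to 0.153). Ier5 (0.044) was lost without the same libraries (0.0789 to 0.304), and Dusp1 (0.0301) without Perinatal BM replicate 1 or 2 or 8w BM replicate 1 or 3 (0.076 to 0.22). Of the marker lists, 9 of 10 mast cell markers were lower and 7 of 8 tested macrophage markers higher, and 5 of 8 neutrophil and 4 of 8 B cell precursor markers were lower. Of 12 heat shock and stress genes, 3 were higher and none lower. The mast cell sum was 41.2 to 62.7 FPKM in 8w BM and 1515 to 4103 FPKM in Perinatal BM, and the part of these lists in the result was not tested. The 2 comparisons share the 8w BM libraries.

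The ratio of Egr1 to Nr4a1 within a library sets the most abundant Egr gene beside the most abundant Nr4a gene, and as a ratio of FPKM it is a description without a test. It was 0.151 to 0.214 in E16.5 FL, 0.430 to 0.624 in Perinatal BM and 0.951 to 1.58 in 1w BM. In 3w BM it was 0.476 to 0.772, in 4w BM 0.684 to 1.28, in 6w BM 1.10 to 1.52 and in 8w BM 1.58 to 2.81. The 8w BM library with the highest Egr1 and Nr4a1, replicate 3, had the lowest ratio of its group.

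In some embryonic, perinatal and later marrow libraries, nearly all members deviated from the group mean in the same direction. In replicate 2 of E12.5 PL, E12.5 FL and Perinatal BM, 9 members were above it (medians 0.29, 0.17 and 0.13). In 8w BM replicate 3, all 10 members were above the mean of the group, with deviations of 0.44 to 1.19 log2 units and a median of 0.71, against medians of -0.37 and -0.47 in replicates 1 and 2. In 6w BM replicate 2, all 10 members were above the mean (median 0.33), and in 1w BM replicate 2, 9 members were (median 0.38). Nr4a3 deviated most in both, by 1.41 in 6w BM replicate 2 and by 1.18 in 1w BM replicate 2. In 1w BM replicate 1, 6w BM replicate 3 and 8w BM replicate 2 no member was above the mean. In 4w BM the members were divided, with 5 of 10 above the mean in each library. The 8 AP-1 genes, the Fos and Jun families with Atf3, deviated upwards in 8w BM replicate 3, 6w BM replicate 2 and 1w BM replicate 2. Their medians there were 0.72, 0.42 and 0.33. In replicate 2 of E12.5 PL, E12.5 FL and Perinatal BM the AP-1 medians were 0.20, 0.17 and 0.004. The median deviation of the 12 heat shock and stress genes was 0.12 and -0.02 in 8w BM replicate 3 and 6w BM replicate 2. The relative depth was 1.17, 0.966 and 1.03 in 8w BM replicate 3, 6w BM replicate 2 and 1w BM replicate 2. The labels give no date, batch or handling time that these libraries could be set against, so the part of cell handling was not tested.

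**Figure D4:**
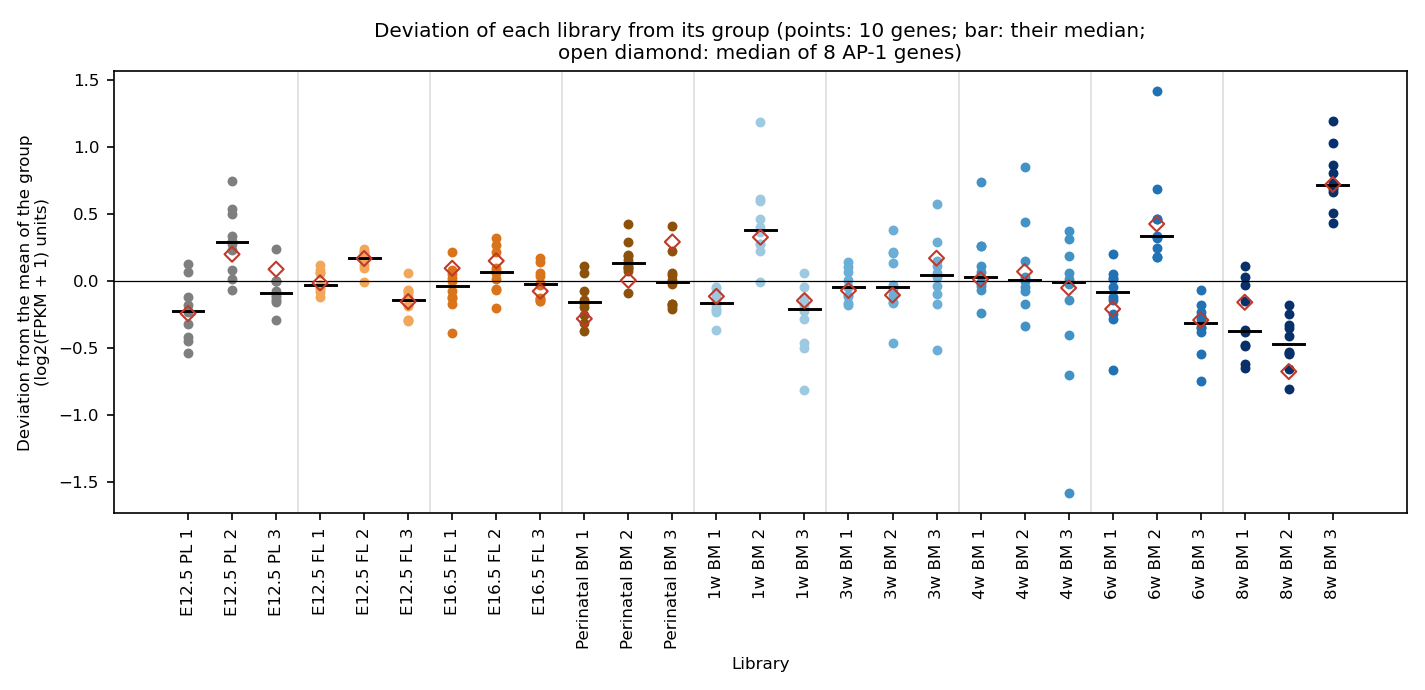
Deviation of each of 10 genes from the mean of its group, in log2(FPKM + 1) units, for each of 27 libraries, with a bar at the median of the 10 genes and an open diamond at the median of 8 AP-1 genes. All 10 points of 8w BM replicate 3 lie above 0, at 0.44 to 1.19, and the lowest point, at -1.58, is Nr4a3 in 4w BM replicate 3.

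Over the 27 libraries, the deviations of 2 members from their group means were positively correlated in each of the 45 pairs (Pearson r from 0.02 to 0.92, median 0.65), as a description over libraries that share their depth and handling. Over the 8 group means outside E12.5 PL, r also was positive in each pair (0.32 to 0.95, median 0.74), and with E12.5 PL included it was lower for some (0.06 to 0.89, median 0.62).

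Other genes of the response were counted in the same fit, from lists written from general knowledge. The share of all genes called in each comparison is given with the members above. Of 8 AP-1 genes, 6 rose between E12.5 FL and E16.5 FL, 7 rose between 1w and 3w BM, 4 rose between 4w and 6w BM and 7 fell between 6w and 8w BM, with none called in the other direction. In E12.5 PL against E12.5 FL, 6 rose and none fell. In Perinatal BM against E16.5 FL, 2 AP-1 genes rose and none fell, with a median log2 fold of -0.06 for AP-1 and 0.89 for the members. In 8w BM against Perinatal BM, 4 AP-1 genes rose and 1 fell, with a median of 0.28 for AP-1 and -0.68 for the members. In 1w BM, 1 rose and 5 fell against Perinatal BM, and 2 rose and 3 fell against E16.5 FL. In 8w BM against E16.5 FL 3 rose and 1 fell, and in 4w BM against 3w BM 1 fell. Fosb, a Fos family gene, averaged 1160 ± 417 FPKM in 6w BM and 261 ± 36.5 FPKM in 4w BM (log2 2.10 ± 0.29 SE, adjusted p = 0.00023). Junb averaged 403 ± 135 FPKM in 8w BM and 954 ± 238 FPKM in 6w BM (log2 -1.26 ± 0.20, adjusted p = 0.000206). Of 36 other early response genes, 22 rose and 1 fell between 1w and 3w BM, and 1 rose and 27 fell between 6w and 8w BM. Klf6, a zinc-finger factor of this list, averaged 263 ± 44.9 FPKM in 3w BM and 33.9 ± 2.59 FPKM in 1w BM. The median log2 fold in 8w BM against 6w BM was -1.29 for AP-1, -1.12 for the other early response genes and -1.36 for the members, against 0.01 for all genes.

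Feedback inhibitors and corepressors, which include phosphatases related to Dusp1, Sprouty genes and the Egr corepressors Nab1 and Nab2, did not follow the members in every comparison. Of 15, 10 rose and 1 fell between E12.5 FL and E16.5 FL, among them Nab2 (10.5 ± 2.49 FPKM in E16.5 FL and 1.88 ± 0.219 FPKM in E12.5 FL). In Perinatal BM against E16.5 FL, where Egr1, Egr2 and Egr3 rose, limma called 0 of the 15 higher (1 at an unadjusted p under 0.05) and 3 lower. Of all genes, 14.2% were called higher and 14.2% lower. Dusp5 was among the 3 (81.0 ± 6.38 FPKM in Perinatal BM and 247 ± 20.9 FPKM in E16.5 FL). In 8w BM, limma called 0 higher and 11 lower against E16.5 FL, where 19.7% of all genes were lower. Against Perinatal BM it called 0 higher and 10 lower in 8w BM, with 18.6% of all genes lower. In 8w BM against 6w BM, 1 rose and 9 fell, and Dusp5 averaged 40.2 ± 21.0 FPKM in 8w BM and 101 ± 3.31 FPKM in 6w BM.

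Genes upstream of the response were counted in the same way. The sum of 27 genes of the MAP kinase path and of SRF, its partners and the CREB family was 800 to 886 FPKM in every library. The share of all genes called is given in brackets, and counts near it say little about the list. In E12.5 PL against E12.5 FL, 11 rose and 8 fell (74.2%), and in E16.5 FL against E12.5 FL 7 rose and 4 fell (34.6%). Against E16.5 FL, 2 rose and 3 fell in Perinatal BM (28.4%) and 2 rose and 5 fell in 1w BM (22.2%). In 8w BM against E16.5 FL, 3 rose and 6 fell (40.2%). Against Perinatal BM, 1 rose and 2 fell in 1w BM (17.6%), and 3 rose and 7 fell in 8w BM (37.8%). In 4w BM against 3w BM, 1 rose (9.28%). Between 1w and 3w BM limma called 0 of the 27 (10.4%). At an unadjusted p under 0.05 there were 9, 6 of them higher and 3 lower. Between 4w and 6w BM limma again called 0 (3.94%), with 2 higher and 2 lower at an unadjusted p under 0.05. In 8w BM against 6w BM, 4 fell (8.18%). Of these, Crtc2, a CREB coactivator, averaged 24.3 ± 1.64 FPKM in 8w BM and 33.4 ± 4.595 FPKM in 6w BM, and Srf 24.1 ± 1.56 FPKM in 8w BM and 28.8 ± 1.37 FPKM in 6w BM. Of 3 relatives of the members (Egr4, Ier5l and Ier3ip1), Egr4 had its highest group mean in 6w BM as well (3.06 ± 1.62 FPKM). Its libraries there, 1.32 to 4.53 FPKM, overlapped those of 4w BM (1.46 to 2.11 FPKM). The sum of the 3 relatives was 37.9 to 42.9 FPKM in 6w BM and higher in E12.5 PL (83.6 to 110 FPKM) and E12.5 FL (50.5 to 58.7 FPKM).

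The genes with levels most like the members were sought over the 8 group means outside E12.5 PL, among 1333 genes that reached 10 FPKM and varied by at least 1 log2 unit. To the mean of the members, Saraf, Gramd1b, Gadd45b, Gna13, Klf10 and Ccrl2 were closest (r = 0.96 to 0.97). Of these 8 groups, each had its highest mean in 6w BM, which is not independent of their choice by likeness to the members. With E12.5 PL included, r was 0.73 to 0.96. Gadd45b and Klf10 are also in the list of other early response genes. Creg1 was closest to Egr1 (r = 0.99 over 8 and over 9 groups), Gramd1b to Nr4a1 (0.98 and 0.99), Rara, the retinoic acid receptor, to Nr4a3 (0.97 and 0.97) and Cebpb, a myeloid transcription factor, to Nr4a2 (0.92 and 0.63). These correlations over group means share the libraries of the members and carry no test.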

How the data were processed

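RNA of 27 HSPC libraries was extracted with Tri Pure reagent and made into libraries with an Illumina TruSeq kit, per the labels' protocols. Trim Galore, FastQC, STAR 2.7, HTSeq 0.6.1p1 and the GRCm38 build are named in the submitters' processing notes. The authors deposited 1 table of FPKM values, and the tool and annotation that made them were not given in the sources used here. Genes with at least 1 FPKM in at least 3 libraries (13350 of 24418 entries) were tested on log2(FPKM + 1) with limma 3.58.1 in R 4.3.3 (moderated, with a mean-variance trend), with 9 group means over 27 libraries and 18 residual degrees of freedom. The Benjamini-Hochberg adjustment was applied to each comparison over all genes tested. On simulated data for 6w BM against 4w BM (13350 genes), 97% of genes changed by log2 1 and 73% of those changed by log2 0.5 were recovered. For E16.5 FL against E12.5 FL the shares were 98% and 60%. Of the unchanged genes, 13 and 9 were called. Changed genes had at least 5 FPKM in the reference group, so the shares do not cover members below that level. These included Egr2 and Egr3 in 4w BM (means of 1.36 and 3.48 FPKM). In E12.5 FL they included Egr2, Egr3 and Nr4a3 (means of 0.429, 3.10 and 0.562 FPKM). Relative depth was read from the steps between low values, which depend on gene length and gave no read counts. Promoter windows came from RefSeq (GRCm38.p6). Values were computed with Python 3.11.15, numpy 2.4.6 and pandas 2.3.3.

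The members and lists were chosen with earlier results of these data known. All 10 members are named. In each comparison up to 4 genes of a pathway list, those with the smallest adjusted p, could be named, and genes of similar pattern were the 3 with the highest r for each member and the 6 with the highest r for the mean of the members. Alternatives were another pseudocount (0.1), no filter, a filter at 5 FPKM, scaling by median ratios, fits restricted to the compared libraries or leaving out E12.5 PL, a replicate block, and leaving out each library in turn.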

Additional observations from a re-analysis of the deposited data

How the results depend on the processing

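Of the 55 called folds, 31 stayed called under every alternative run in which the member was tested, and none changed sign. Counts of members called moved by more than 1.5 times in these fits. A filter at 5 FPKM gave 1 member in 1w BM against E16.5 FL, because it removed Egr2 (at most 4.87 FPKM) from the test. No filter gave 3 in 1w BM against Perinatal BM and 2 in 3w BM against 1w BM. Without the E12.5 PL libraries, 7 were called in 3w BM against 1w BM. With only the 6 libraries compared, 4 were called in 8w BM against Perinatal BM, 8 in 3w BM against 1w BM, 1 in 4w BM against 3w BM and 3 in 8w BM against 6w BM. The cause of the changes other than that of the 5 FPKM filter was not tested.

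Leaving out 1 library at a time gave 7 to 8 members in E12.5 PL against E12.5 FL, 4 to 6 in E16.5 FL against E12.5 FL, 4 to 5 in Perinatal BM against E16.5 FL, 2 to 4 in 1w BM against E16.5 FL and 4 to 6 in 8w BM against E16.5 FL. It gave 3 to 6 in 1w BM against Perinatal BM, 4 to 9 in 8w BM against Perinatal BM, 1 to 5 in 3w BM against 1w BM, 0 in 4w BM against 3w BM (limma), 1 to 4 in 6w BM against 4w BM and 5 to 9 in 8w BM against 6w BM. All 10 differed among the BM groups in each.

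Over all genes tested, libraries of the same number did not deviate together over the groups as a whole (r from -0.205 to 0.227 over 108 pairs). Of 27 libraries, 8 were most like those of their own number. Among the members, replicate 2 had the highest median deviation of its group in 1w BM (0.38), 6w BM (0.33) and E12.5 PL (0.29). The same held in E12.5 FL (0.17), Perinatal BM (0.13) and E16.5 FL (0.07). In 3w, 4w and 8w BM, replicate 2 was not the highest (-0.05, 0.004 and -0.47). The check was not run on the members alone. The labels state no pairing, and a check pooled over all groups cannot exclude a pairing of some of them. With a replicate block, 8, 7, 5, 2, 6, 5, 6, 5, 0, 4 and 9 members were called in the comparisons in the order E12.5 PL and E16.5 FL against E12.5 FL, Perinatal, 1w and 8w BM against E16.5 FL, 1w and 8w BM against Perinatal BM, and 3w, 4w, 6w and 8w BM against the age before, with 10 among the BM groups. With 3 libraries a group and depth in reads unknown, the standard error of a log2 fold was 0.57 for Nr4a3 and 0.36 for Egr3, against 0.21 to 0.31 for the other 8 members.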
